A study of Homo sapiens with 4 samples.

Results

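The 10 genes described here code for inflammatory cytokines and chemokines that epithelial tumour cells can release: IL1A, IL1B, IL6, IL8, IL11, LIF, CXCL1, CXCL2, CXCL3 and CCL20. They were chosen by name, and every gene probe of the array that carries one of these names was taken, with IL8 under the name the array design used for the gene now called CXCL8. This gave 13 of 34127 probes and 10 of 27274 gene names, or 40 of 43118 gene spots on each array. IL1A, IL1B and IL6 had 1 probe printed 10 times on each array, LIF, CXCL1 and CXCL2 had 2 probes of 1 spot, and the others had 1 probe of 1 spot. Total RNA was measured in 4 groups of 1 array each, which are called control and ATO in each of the lines LNCaP and PC3. LNCaP and PC3 are established human prostate cancer lines, the former androgen-responsive and the latter not, both grown in RPMI medium with serum. The ATO groups were exposed to 10 µM atorvastatin for 24 h, while the controls are labelled as having had no treatment, with no vehicle named. With 1 array in a group there is no replicate, so no difference within a line carries a p-value.

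Cytokines and chemokines are secreted proteins that carry inflammatory signals between cells. IL1A and IL1B bind the interleukin-1 receptor and switch on NF-kB, the transcription factor that in turn drives many cytokine genes. IL6, IL11 and LIF share the receptor subunit IL6ST and signal through JAK kinases and STAT3. IL8, CXCL1, CXCL2 and CXCL3 are CXC chemokines that attract neutrophils through the receptors CXCR1 and CXCR2, and CCL20 attracts lymphocytes and dendritic cells through CCR6. Atorvastatin is a statin, which blocks HMG-CoA reductase, the enzyme that makes mevalonate, the precursor of cholesterol and of the lipid anchors of small GTPases.

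The promoters of the 3 genes that were lower in PC3 ATO are shown beside those of IL6, IL8 and IL1B, because they let a reader compare the sequence of genes whose PC3 ratios differed. RefSeq promoter windows of the GRCh38.p14 build were matched for 9 of the 10 members, and LIF was not matched. Each line gives the 100 bases before the start of the gene, read 5′ to 3′ on the strand of the gene, with matches to any motif searched in capitals.
CXCL1, chr4:73869293-73869392 (+): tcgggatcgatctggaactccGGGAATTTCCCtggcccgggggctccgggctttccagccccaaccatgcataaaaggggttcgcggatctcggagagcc
CXCL2, chr4:74099196-74099295 (-): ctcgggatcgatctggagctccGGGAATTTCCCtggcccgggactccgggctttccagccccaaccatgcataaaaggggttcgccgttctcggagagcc
CXCL3, chr4:74038690-74038789 (-): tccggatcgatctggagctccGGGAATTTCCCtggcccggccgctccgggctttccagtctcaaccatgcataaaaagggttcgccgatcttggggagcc
IL6, chr7:22727100-22727199 (+): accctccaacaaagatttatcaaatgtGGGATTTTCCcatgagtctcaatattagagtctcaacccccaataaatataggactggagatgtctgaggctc
IL8, chr4:73740469-73740568 (+): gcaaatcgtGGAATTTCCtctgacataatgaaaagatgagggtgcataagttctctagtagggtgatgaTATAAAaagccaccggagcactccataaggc
IL1B, chr2:112836780-112836879 (-): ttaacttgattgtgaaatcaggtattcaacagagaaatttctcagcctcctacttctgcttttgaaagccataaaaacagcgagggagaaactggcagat
The motifs, searched on both strands over the 250 bases before the start, were the degenerate kappa B consensus, GGAATTTCC, which is 1 form of the kappa B site, TGANTCA, which is the AP-1 site, and TATAAA, the TATA box. CXCL1, CXCL2 and CXCL3 each held GGAATTTCC inside a run that also matched the kappa B consensus, with the first base of that run 79, 78 and 79 bases before the start. GGAATTTCC was found in 0.413% of 35116 promoter windows of this length, and the consensus in 9.96%. It was searched as the kappa B form of the CXC genes, so its presence in CXC members was fixed by that choice. IL8 held GGAATTTCC 91 bases before its start, and IL6 held the consensus at 73. CCL20 held the consensus at 79, although its transcript was not detected on any array. AP-1 letters were present in IL8, IL11 and IL1A (6.57% of windows) and TATAAA in IL8, CCL20 and IL1A (10.7%). No motif of this search lay in the IL1B window. With no gaps allowed, the printed windows were identical at 90 of 100 bases for CXCL1 and CXCL3, at 73 for CXCL1 and CXCL2 and at 67 for CXCL2 and CXCL3. The run starts at 78 in CXCL2 and at 79 in CXCL1 and CXCL3, so part of the CXCL2 window is out of register in these counts. They therefore do not rank the pairs by likeness. These matches describe letters and say nothing of binding in these cells.

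The 60-base probe that represents CXCL2 was examined because the deposited annotation assigns it to both CXCL2 and CXCL3. It lies on chr4:75183206-75183265 of the hg18 build, on the minus strand, and is shown with the CXCL1 probe of chr4:74954510-74954569, with bases that match in the overlap in capitals.
CXCL2 probe: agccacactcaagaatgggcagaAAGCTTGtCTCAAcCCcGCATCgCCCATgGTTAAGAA
CXCL1 probe: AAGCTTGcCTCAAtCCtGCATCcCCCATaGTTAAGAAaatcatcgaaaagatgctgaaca
Over the 37 bases in which the probes overlap, 32 were the same. The second CXCL2 probe, at 75181849-75181908, is assigned to CXCL2 alone, and the CXCL3 probe, at 75121566-75121625, to CXCL3 alone. Signal on the shared probe can therefore come from either transcript, and how far CXCL1 RNA binds it was not tested. All probes of the CXC members lay within 355.1 kb of chromosome 4, together with those of CXCL6 and CXCL5. No exon annotation of hg18 was used here.

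All values below are processed spot intensities in arbitrary units, and the error after a value is the one the scanner software gives for that spot unless stated otherwise. A probe was called detected when it was well above the background of the array by the software's own test. No spot was saturated on any array, and 48.5% to 52.9% of gene spots were well above background. The 75th percentile, by which each array was scaled before ratios were taken, ranged from 496.8 to 590.3. The lines matched their labels: all 6 LNCaP markers were higher on the LNCaP control array, with KLK3, which codes for PSA, at 65987 against 11.2, and all 6 PC3 markers were higher on the PC3 control array, with CAV1 at 12387 against 7.78. Of 9 leukocyte markers, FCER1G alone was detected on the PC3 arrays, and PTPRC and MS4A1 were detected on the LNCaP control array only. COL1A1 was the only 1 of 7 fibroblast markers that was detected. The summed level of the leukocyte markers was 47.8% to 90.8%, and that of the fibroblast markers 24.1% to 36.4%, of the 75th percentile of an array. Because RNA was pooled from whole cultures, fewer producing cells and less RNA per cell cannot be told apart.

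The members were largely a feature of the PC3 arrays. On the PC3 control array 8 of 10 members and 11 of 13 probes were detected, and on the PC3 ATO array 7 members and 10 probes. On the LNCaP control array LIF was the only member detected, and on the LNCaP ATO array LIF and CXCL2 were. IL1A, which codes for an interleukin held in the cell and released as an alarm signal, was not well above background on any array, with means over its spots of 7.03 in LNCaP control, 11.6 in LNCaP ATO, 11.3 in untreated PC3 and 11.8 in PC3 ATO. CCL20 was not well above background either, at 5.45, 10.9, 10.7 and 10.8 on the same arrays. The undetected member probes lay between 5.45 and 8.02 on the LNCaP control array and between 10.9 and 13.8 on the LNCaP ATO array, so that the level of an empty probe differed between these arrays.

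**Figure D1:**
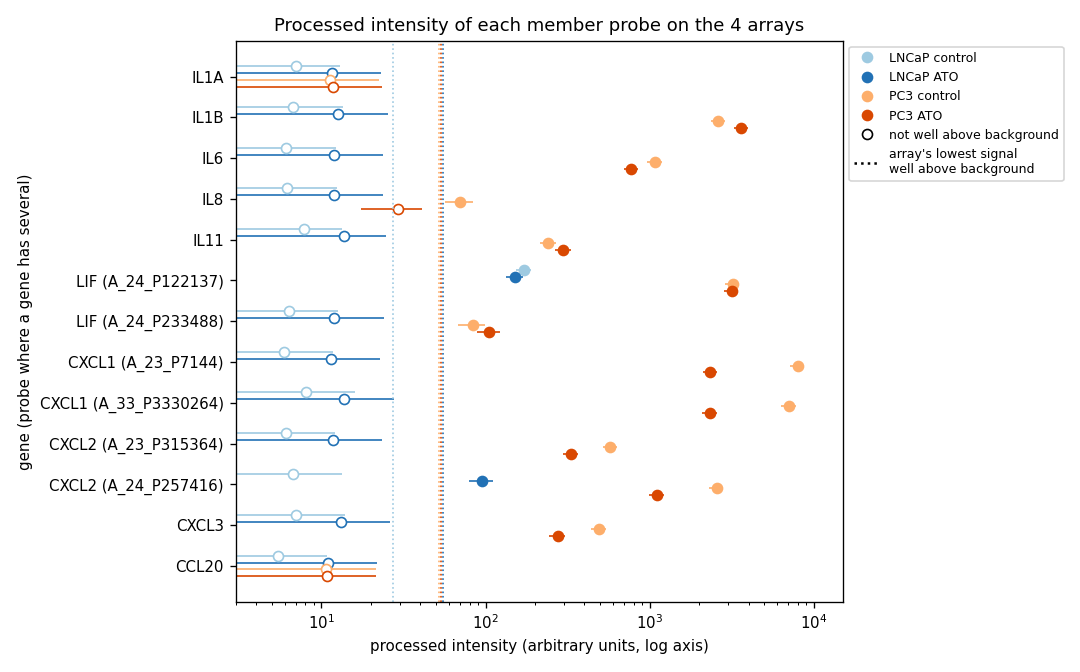
Processed intensity (log axis, arbitrary units) of each probe of the 10 genes on the 4 arrays. Horizontal lines are the error given by the scanner software, open circles mark probes not well above background, and dotted lines mark the lowest signal well above background on each array (27.4 to 54.7). The filled PC3 points of 8 genes lie above 50, whereas the LNCaP points are open apart from 1 LIF probe and, on the ATO array, 1 CXCL2 probe.

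Every member detected in an untreated line was brighter in PC3. At the 2-fold threshold, 8 of 8 members with a value were higher in PC3 control than in LNCaP control and none was lower, where 20.5% of 15237 genes were higher and 19.2% lower. Over the other 6 scalings and backgrounds tried, 13.7% to 30.4% of genes were higher and 9.90% to 31.1% lower. Except for LIF, the LNCaP side was below detection, so a difference is a lower bound, taken against the lowest signal that was well above background on the LNCaP array. Members that were detected only in PC3 had to differ, and their number supports nothing beyond the levels themselves.

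Among the interleukins, IL1B was at least 80.3-fold higher in PC3 control, with spots of 2352 to 2758 in PC3 control against 5.50 to 8.13 in LNCaP control. IL6 was at least 33.1-fold higher, with spots of 1019 to 1151 against 5.49 to 7.75. No spot of either gene overlapped between the lines. IL11, a cytokine that acts on bone and stromal cells, was at least 7.40-fold higher, at 241 ± 26.3 in PC3 control against 7.83 ± 5.49 in LNCaP control. These bounds depend on the background correction: on the log2 scale they were 6.33 for IL1B, 5.05 for IL6 and 2.89 for IL11, and with the normexp background 4.77, 3.61 and 1.82.

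Among the chemokines, CXCL1 was at least 217-fold higher by its brighter probe over the 4 arrays and at least 245-fold by the other. CXCL2 was at least 78.7-fold higher by the shared probe and at least 17.7-fold by its own. CXCL3 was at least 15.1-fold higher, at 492 ± 50.9 against 7.01 ± 6.99. With the normexp background the log2 bounds fell from 7.76 to 6.47 for CXCL1, from 6.30 to 4.71 for CXCL2 and from 3.92 to 2.44 for CXCL3. IL8 gave the weakest of these bounds, at least 2.17-fold, from 70.4 ± 13.4 in PC3 control against 6.19 ± 6.18 in LNCaP control. The IL8 bound fell short of 2-fold with the arrays scaled to the 50th percentile (log2 0.68), with quantile normalization (0.71) and with the normexp background (0.53). The IL8 probe has a GC content of 16.7%, and 0.0440% of the gene probes of the array have a lower one. The part of base composition in its low signal was not tested.

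LIF, a cytokine that keeps stem cells undifferentiated and signals through STAT3, was the only member measured on all 4 arrays. Its brighter probe read 171 ± 17.9 in untreated LNCaP and 151 ± 18.5 in LNCaP ATO. In PC3 it read 3201 ± 320 without treatment and 3152 ± 315 with ATO. Both PC3 values thus stood far above both LNCaP values, and PC3 control was 15.8-fold above LNCaP control. With treatment as a block, the limma fit over all 4 arrays gave a log2 difference between PC3 and LNCaP of 4.13 (SE 0.158, adjusted p = 0.00149, higher in both arrays of PC3). Over 7 alternative settings the adjusted p lay between 1.34e-06 and 0.00596. The same fit called 7993 of 13733 genes, or 58.2%, so a call was common. It had 1 residual degree of freedom and treats the 2 arrays of a line as its repeats. The second LIF probe, which lies farther from the 3′ end of the gene, read 6.31 and 12.0 on the LNCaP arrays, both not well above background, and 83.5 and 106 on the PC3 arrays.

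In PC3 cells exposed to ATO, the CXC chemokines CXCL1, CXCL2 and CXCL3 were lower than in PC3 control, whereas IL1B and IL11 were somewhat higher and LIF was nearly level. Of 8 members with a value, 3 were lower by at least 1.5-fold and none was higher, where 10.2% of 13815 genes were lower and 8.21% higher. Under the other scalings and backgrounds these shares ran from 6.55% to 12.9% and from 5.77% to 15.6%. The median log2 ratio of the members with a value was -0.39, against -0.01 over all genes with a value. The member median lies midway between IL6 and IL8, of which IL8 enters as a bound, and holds for the main scaling only.

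CXCL1, also known as GRO-alpha, had the largest difference of the 10. Its probes read 7974 ± 797 and 7041 ± 704 in PC3 control and 2338 ± 234 and 2323 ± 233 in PC3 ATO. On either probe the ATO value lay far outside the error of the control value, and the scaled ratios were 3.30-fold and 2.93-fold lower. By the second of these, the probe that represents the gene, CXCL1 ranked number 43 from the lowest among 12513 genes detected on both PC3 arrays. Its log2 ratio of -1.55 moved between -1.72 and -1.36 over the alternatives, always past 1.5-fold.

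On the probe shared with CXCL3, CXCL2 read 2558 ± 256 without treatment and 1103 ± 111 with ATO, which is 2.24-fold lower. On its own probe it read 575 ± 58.5 and 330 ± 35.1, or 1.69-fold lower. CXCL3 read 492 ± 50.9 and 275 ± 30.7, or 1.73-fold lower. The probes that each belong to 1 gene therefore gave close ratios, and the shared probe a larger one. Among the 12513 genes, CXCL3 ranked number 479 from the lowest. CXCL2 ranked number 136 by the shared probe, but its own probe, at a log2 ratio of -0.75, would stand at number 548, behind the -0.79 of CXCL3. CXCL3 stayed past 1.5-fold under every scaling, with log2 ratios from -0.87 to -0.59, but at a 2-fold threshold 2 members, CXCL1 and CXCL2, were called. The CXCL2 ratio ranged from -1.25 to -0.75 and missed 2-fold with the shared probe left out (-0.75), with the 50th percentile (-0.97) and with the median over probes (-0.96).

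IL8, the fourth CXC chemokine, read 70.4 ± 13.4 in PC3 control and 29.4 ± 11.9 in PC3 ATO. The ATO value was not well above background, so the main processing gives a nominal bound of 1.26-fold lower (log2 -0.34). The bound was weaker with the 50th percentile (-0.14), quantile normalization (-0.15) and the normexp background (-0.23). It was stronger with spike-in probes (-0.42), cyclic loess (-0.39) and the deposited ratio (-0.42). Taken as measured, the log2 ratio of IL8 was -1.21.

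**Figure D2:**
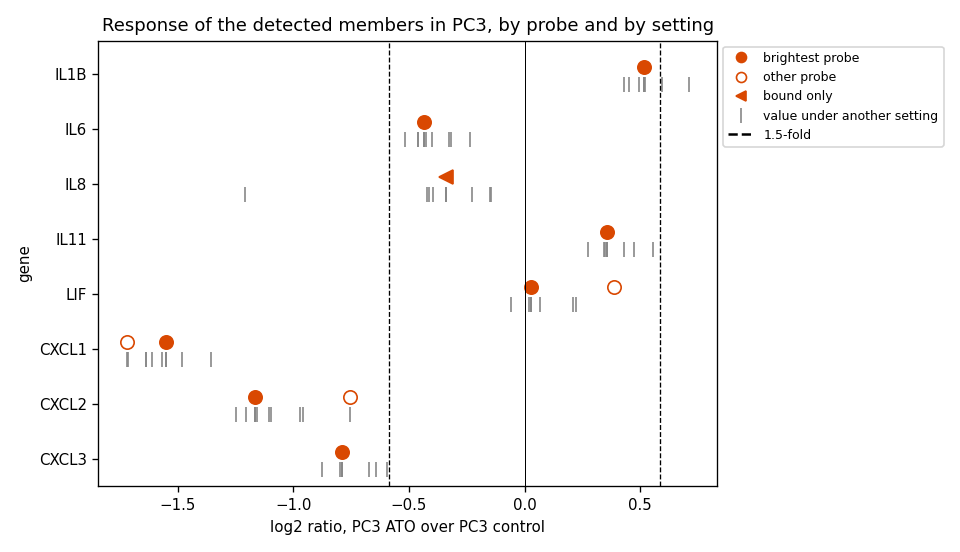
Log2 ratio of PC3 ATO over PC3 control for the 8 members detected on at least 1 PC3 array. Filled circles are the brightest probe, open circles the other probe, the triangle a bound, grey ticks the value under each alternative setting, and dashed lines mark 1.5-fold. CXCL1, CXCL2 and CXCL3 stay left of the lower line under every setting, and IL1B crosses the upper line under 2 settings.

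IL1B and IL6 can be judged against the spread of repeated spots, which covers technical error within an array and not the spread between cultures. IL1B, the main secreted form of interleukin-1, read 2611 ± 122 in PC3 control (SD over 10 spots) and 3609 ± 158 in PC3 ATO (SD over 10 spots). The lowest ATO spot, 3389, was above the highest control spot, 2758. Its log2 ratio was 0.52 (SE 0.029 over spots), or 1.43-fold higher. With the arrays scaled to the 50th percentile the log2 ratio was 0.71 and with cyclic loess 0.59, both past 1.5-fold, whereas the 50th percentile also moved the median of all genes to 0.21. Relative to the median of all genes, the IL1B ratio lay between 0.43 and 0.54 on the log2 scale under every scaling.

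IL6, a cytokine that drives the acute phase response, read 1077 ± 46.3 in PC3 control (SD over 10 spots) and 771 ± 46.8 in PC3 ATO (SD over 8 spots, with 2 outlier spots left out). Its highest ATO spot, 848, was below the lowest control spot, 1019. The log2 ratio was -0.43 (SE 0.036 over spots), or 1.35-fold lower, and it ranged from -0.52 to -0.24 over the alternatives without reaching 1.5-fold. IL1B and IL6 thus stood on opposite sides of no change, with spots that did not overlap in either gene. Their spots did not overlap between the LNCaP arrays either, at log2 ratios of 0.81 for IL1B and 0.86 for IL6, although neither was detected there. Spots that do not overlap therefore do not by themselves tell a change in RNA from a shift between arrays. The share of other repeated probes without overlap was not counted.

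**Figure D3:**
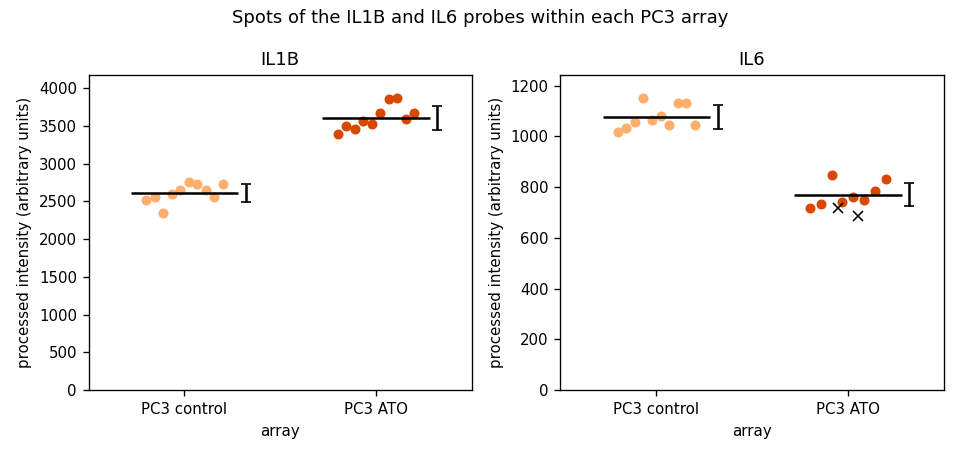
Processed intensity of each spot of the IL1B and IL6 probes on the PC3 control and PC3 ATO arrays, with the axis from 0. Bars are the mean and the SD over unflagged spots, and crosses are 2 spots left out as outliers. The spots of the arrays do not overlap, with IL1B at 2352 to 2758 against 3389 to 3866 and IL6 at 1019 to 1151 against 719 to 848.

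The other relatives of IL6 were not lower. IL11 read 241 ± 26.3 in PC3 control and 298 ± 31.7 in PC3 ATO, or 1.28-fold higher. LIF was at a log2 ratio of 0.03 by its brighter probe and 0.39 by the dimmer one (83.5 ± 15.6 and 106 ± 16.7), so the probes differed in size and neither reached 1.5-fold. The sign of the LIF ratio turned with scaling to the spike-in controls (-0.06).

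**Figure D4:**
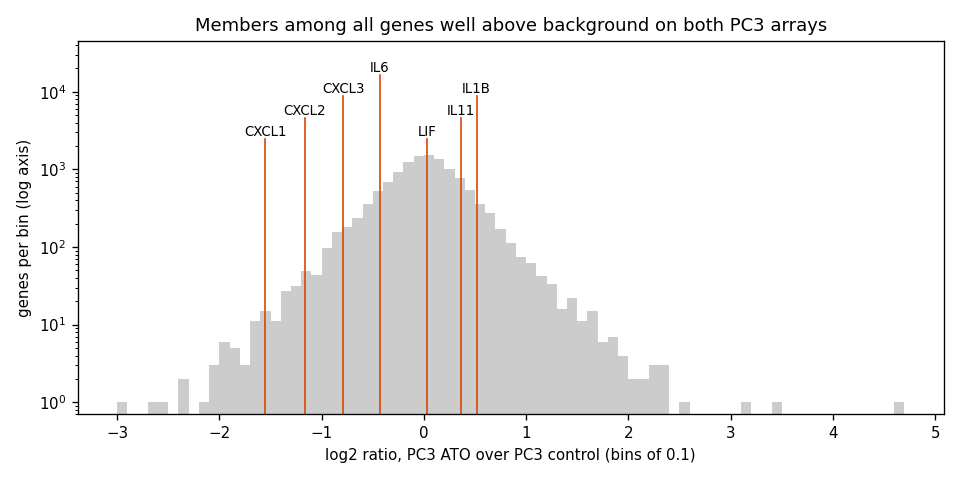
Number of genes (log axis) by log2 ratio of PC3 ATO over PC3 control, in bins of 0.1, for the 12513 genes well above background on both PC3 arrays, with the 7 members among them marked. CXCL1 and CXCL2 lie in the far left of the distribution (numbers 43 and 136 from the lowest, CXCL2 by the probe shared with CXCL3), LIF near its centre, and IL1B at number 1163 from the highest.

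In LNCaP the members gave little to compare, since 2 of 10 had a value. CXCL2 was called higher in LNCaP ATO and no member was lower, where 2.75% of 13739 genes were higher and 2.01% lower. Over the other scalings and backgrounds the higher share was 1.19% to 4.15% and the lower share 1.38% to 2.28%. The CXCL2 call came from 1 spot of the shared probe. That probe read 6.68 ± 6.66 in LNCaP control and 95.1 ± 15.6 in LNCaP ATO, which is at least 3.23-fold higher. On the log2 scale this bound was 1.69, and 0.98 with the normexp background. The other CXCL2 probe was not well above background on either array, at 6.08 and 11.8, and neither was the CXCL3 probe, at 7.01 and 13.1. With the shared probe left out no member was called in LNCaP. LIF was 1.21-fold lower in LNCaP ATO, and its intensities of 171 and 151 lay closer together than the sum of their errors.

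Undetected probes were higher on the LNCaP ATO array as a whole. Over 16931 probes not well above background on either LNCaP array the median log2 difference was 0.81, and the 11 such member probes lay between 0.68 and 0.90. Without the filter on dim probes, 9 of 10 members would pass 1.5-fold in LNCaP, of which CXCL2 alone was well above background on the ATO array and the others lay at the level of empty probes on both.

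The treatment over both lines was tested with limma with cell line as a block, and 0% of 11902 genes passed (0 at an adjusted p under 0.05, 531 at an unadjusted p under 0.05). With scaling to the 50th percentile 12 genes passed, none of them a member. LIF and CXCL2 were the only members that could be tested, with log2 differences of -0.13 (SE 0.152, adjusted p = 0.824, lower in 1 of 2 lines) and 1.28 (SE 1.30, adjusted p = 0.794, higher in 1 of 2 lines). The CXCL2 value uses the LNCaP control reading of a probe that was not well above background there, and it turned to -0.05 with the normexp background, so it has no settled direction. Whether a response differed between the lines could not be tested, since the fit would leave no residual degree of freedom.

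Genes related to the members were taken from lists written from general knowledge, with earlier results of these data known. Among 34 other cytokines and chemokines on the array, 15 were detected in PC3, with a median log2 ratio of 0.10. Of these, 3 were lower and 2 higher in PC3 ATO, where 10.2% of all genes were lower and 8.21% higher. The lowest were CXCL6 (3164 to 862, 3.55-fold) and CXCL5 (2488 to 1025, 2.35-fold), CXC chemokines that use the same receptors and whose probes lie between those of IL8 and CXCL3. IL18, a cytokine of the interleukin-1 family, was 1.51-fold lower (3905 to 2506). CSF1, the growth factor of macrophages, was at least 2.64-fold higher (23.6, not well above background, to 133), and IL15 was 1.51-fold higher (395 to 576). The ratios of IL18 and IL15 lay only just past the 1.5-fold threshold. CXCL6 and CXCL5 are named because their ratios were the lowest of their list, so lower genes in that interval of chromosome 4 are not counted. Genes of the interval outside the members and lists were not examined.

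For the lists that follow, the shares over all genes are again 10.2% lower and 8.21% higher in PC3 ATO. Of 10 receptor genes on the array 6 had a value in PC3, and 2 were lower. The decoy receptor IL1R2 was lower by a nominal bound of 1.80-fold (131 to 70.3, not well above background). The co-receptor IL1RAP was 1.56-fold lower (252 to 156). The CXCL chemokine receptors, named IL8RA and IL8RB on the array, were not well above background on any array. Of 12 inhibitors and processing enzymes 10 had a value, with 2 higher and 2 lower. IL1RN, the antagonist of the interleukin-1 receptor, was 1.61-fold higher in PC3 (1310 to 2037) and 1.95-fold higher in LNCaP (216 to 454). CASP1, the protease that cuts the IL1B precursor, was at least 1.80-fold higher in PC3 ATO (14.6, not well above background, to 90.6). SOCS2, a feedback inhibitor of JAK signalling, was 1.59-fold lower, and IL18BP, which binds IL18, was 1.57-fold lower.

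Among 22 NF-kB subunits, kinases and inhibitors with a value in PC3, 20 were not called. The feedback inhibitor TNFAIP3 was at least 2.17-fold lower (135 to 60.4, not well above background), and the coactivator BCL3 was 1.88-fold higher (946 to 1721). Among 14 other NF-kB target genes with a value, 6 were lower and 1 was higher, with a median log2 ratio of -0.26. SAA1, an acute phase protein, was at least 3.30-fold lower (183 to 11.2, not well above background), PTX3, a secreted pattern recognition protein, was 2.98-fold lower (1604 to 521), and PTGS2, the inducible cyclooxygenase, was at least 2.86-fold lower (159 to 39.2, not well above background). The complement gene C3 went the other way, 4.96-fold higher (282 to 1353). These counts are descriptions, and no list was set against chance.

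In the JAK and STAT3 list, 2 of 11 genes with a value were higher in PC3 ATO, PIM1 (733 to 1413, 1.99-fold) and BCL6 (612 to 1024, 1.73-fold) and none was lower. STAT3 itself was not well above background in PC3 on either of its probes, of which the brighter read 1089 and 1146 on the LNCaP control and ATO arrays but 14.0 and 14.7 on those of PC3. STAT5B behaved alike, at 256 and 303 in LNCaP and at 10.4 and 11.2, not well above background, in PC3. Of the 6 probes of IL6ST, the shared receptor subunit, only 1 was well above background on any array, at 123 in untreated PC3 and 14.8, not well above background, after ATO. The probe that represents IL6ST was not well above background on any array. Of 13 factors that bind AU-rich or other elements of transcripts, many of them setting how fast cytokine transcripts decay, or that regulate such factors, ZFP36 was 2.08-fold higher (1433 to 2881) and the other 12 were not called.

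**Figure D5:**
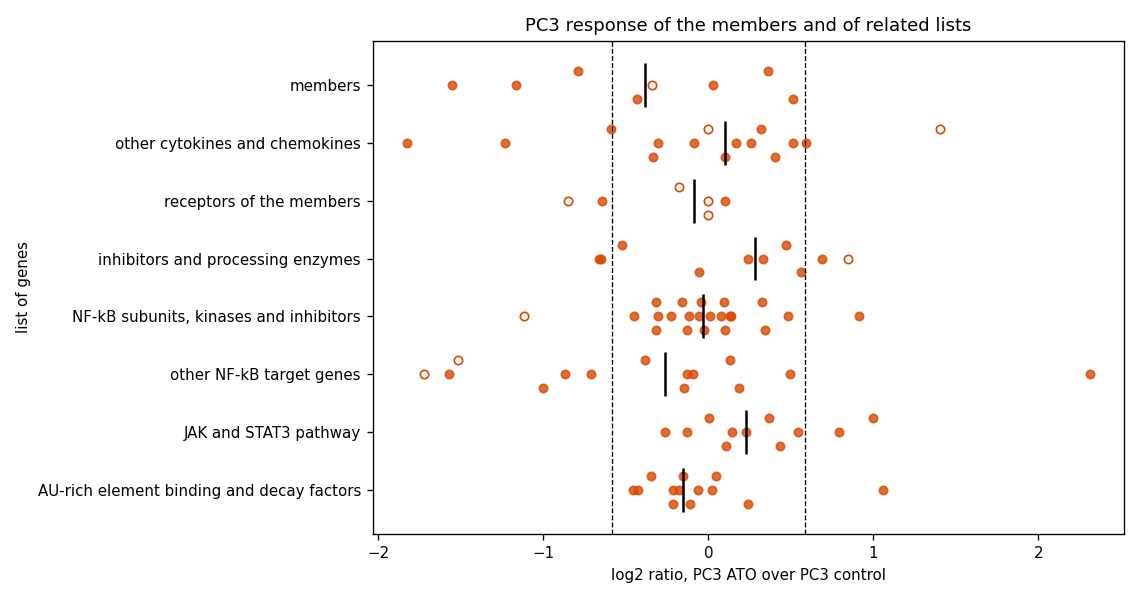
Log2 ratio of PC3 ATO over PC3 control for the members and for 7 related lists. Points are genes with a value, open points are bounds, black bars are medians over the list, and dashed lines mark 1.5-fold. With bounds counted as values, the members have a median of -0.39, the other NF-kB target genes -0.26 and the JAK and STAT3 list 0.23.

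The 5 genes whose pattern over the 4 arrays was most like that of CXCL1, among 12506 other genes detected on both PC3 arrays, were CDH2, EFEMP1, LYPD1, FRMD6 and PLAT. Their distances to CXCL1, over 4 log2 values centred on the mean of each gene, ran from 0.358 for CDH2, which codes for N-cadherin, to 0.638 for PLAT, the tissue plasminogen activator. Their log2 ratios in PC3 lay between -1.50 for EFEMP1 and -0.79 for PLAT. All 5 were below detection on the LNCaP control array and at least 113-fold higher in PC3 control, so the LNCaP side of each pattern is near the level of an empty probe.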

How the data were processed

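RNA of LNCaP and PC3 cells was hybridised to 1-colour Agilent human arrays, 1 for each of 4 groups taken from the sample labels. The arrays shared 1 slide at 4 positions, so position and group cannot be told apart. The authors made the deposited intensity values with Agilent Feature Extraction 9.5.3.1: per the file headers, background was subtracted, a slide trend corrected and dim signals replaced by surrogates. The deposited ratio table (intensity over the array's 75th percentile) served as an alternative.

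For the present values, outlier spots were dropped, log2 intensities of the spots of a probe were averaged, and log2 of the 75th percentile was subtracted. Detection needed over 50% of unflagged spots to be well above background. The brightest probe with values on all 4 arrays stood for a gene. Calls were made at 1.5-fold in a line and 2-fold between untreated lines, for genes detected on 1 or both arrays. A dim side was entered as a bound, at the array's lowest signal well above background or at its own reading where higher. Such bounds are nominal, since some undetected signals lay above that lowest signal. No p was computed in a line. limma 3.58.1 (R 4.3.3, lmFit and eBayes, two-sided, Benjamini-Hochberg over all genes tested, threshold 0.05) tested line with treatment as a block and treatment with line as a block. The fits were first run on simulated data with equal noise in all genes and few changed genes, unlike these data. Those runs checked the code and not how the fits perform here. The other tables were made with Python 3.11.15 and pandas 2.3.3.

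Alternatives were scaling to the 50th percentile or spike-in probes, quantile normalization, cyclic loess, normexp (offset 50), the deposited ratio, the median over probes, outlier spots kept, local backgrounds over 1.5 times the array's median left out, other filters and thresholds, and an intensity trend in the limma prior. Leaving out the CXCL2 probe shared with CXCL3 was chosen after seeing the data. The members and lists were chosen with earlier results of these data known. Named genes were the members, line markers, at most the 3 highest and 3 lowest called PC3 ratios of a list, and the 5 genes most like the brightest member. Markers of other cell types were named by their detection.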

Additional observations from a re-analysis of the deposited data

Results flagged for a closer look

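LIF and CXCL2 had ratios of opposite sign in the lines. The log2 ratio of LIF in LNCaP minus that in PC3 was -0.31, from 1.21-fold lower in LNCaP ATO and 1.02-fold higher in PC3 ATO. The signs of LIF were no longer opposite with spike-in scaling, at -0.14 in LNCaP and -0.06 in PC3, or with the median over probes, at 0.27 and 0.21. For CXCL2 the same difference was at least 2.86, from at least 3.23-fold higher in LNCaP ATO and 2.24-fold lower in PC3 ATO, both on the probe shared with CXCL3. These bounds hold for the main processing only. The CXCL2 log2 ratio in LNCaP fell from 1.69 to 0.98 with the normexp background and to 0.19 with the median over probes. With 1 array in each group, neither difference was tested.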

How the results depend on the processing

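The labels carry no replicate numbers, so no replicate block could be fitted, and the limma fits block on treatment or on cell line instead. With 1 array in each group, no array could be left out. Of the counts recomputed under an alternative, 97 stayed within 1.5 times the reported count and 9 did not. Some of the 97 were 0 under both settings. A count within that range can also hide a member that crossed a threshold, as IL8 did between the lines. Members higher in PC3 went from 0 to 1 (IL1B) with the 50th percentile and with cyclic loess. Members higher in LNCaP went from 1 to 0 with the median over probes, with the shared CXCL2 probe left out and with genes required to be well above background on both arrays, and to 9 with no filter on dim probes, where dim probes of the LNCaP ATO array lie higher. Members higher in PC3 control than in LNCaP control went from 8 to 1 (LIF) when both arrays had to be well above background, since the others are below detection in LNCaP. The limma fit of the line called 4521 genes in place of 7993 with no filter on dim probes, and that of the treatment 12 in place of 0 with the 50th percentile. The cause of the last 2 shifts was not tested. Among values of single members, LIF in LNCaP turned from a log2 ratio of -0.28 to 0.27 with the median over probes, of which 1 is below detection. The 50th percentile moved the median of all genes to 0.21 in PC3 and -0.56 between the lines, and spike-in scaling moved it to 0.14 in LNCaP and 0.39 between the lines, against -0.12 between the lines as reported. Signals below 27.4 to 54.7 intensity units cannot be told from background on these arrays, and some signals above these levels were not well above background either.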
